A study of Mus musculus with 29 samples.

Results

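The CCAAT/enhancer-binding proteins (C/EBPs) are a small family of transcription factors, and the 4 members described here are the genes Cebpa, Cebpb, Cebpd and Cebpg, taken as the rows of the deposited count table that carry these symbols. They make up 4 of the 20411 genes of the table, and all 4 were among the 12928 genes with enough counts to be tested. The fifth C/EBP gene proper, Cebpe, known from granulocyte maturation, held 9 counts over all 29 libraries, was at 0 in 22 of them and was not tested. Whole-transcript RNA sequencing was done on hearts of wildtype BALB/c mice in a crossed design of vector and tumour. Every mouse first received an adeno-associated virus (AAV) in which Tbg, a promoter active in hepatocytes, drives either green fluorescent protein (GFP) or the clock repressor REV-ERBα. It then received either C26 colon carcinoma cells under the skin or phosphate-buffered saline (PBS). The sample labels give the interval, 10 days, for the C26 groups only. The groups were GFP vector with PBS (PBS_GFP, n = 4), REV-ERBα vector with PBS (PBS_REVERBa, n = 5), GFP vector with C26 tumour (C26_GFP, n = 10) and REV-ERBα vector with C26 tumour (C26_REVERBa, n = 10), with 1 heart per mouse. No group went without AAV, the vector's promoter is a liver promoter while the tissue read here is heart, and nothing used here states the mice's age or sex or the time of day at which hearts were taken.

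C/EBPs carry a basic region that contacts DNA and a leucine zipper through which they pair with each other or with other bZIP factors. Cebpb and Cebpd are rapidly induced by cytokines of the interleukin-6 type through STAT3, and by glucocorticoids, and drive acute phase genes. Cebpa is a differentiation factor of adipocytes, hepatocytes and granulocytes, whereas Cebpg lacks a strong activation domain and pairs with other factors, among them ATF4. In the heart, Cebpb is known as a restraint on cardiomyocyte growth, and the C26 tumour is a widely used model of cancer cachexia with raised interleukin-6. Cebpa and Cebpb each give long and short proteins from 1 messenger RNA, which counts per gene cannot tell apart.

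A stretch of the coding sequences of Cebpb, Cebpa and Cebpg is shown first, because it is what makes these genes 1 family and because it bears on whether short reads can be assigned to 1 member. It is the window of 60 bases in which these 3 genes are most alike and codes for part of the basic DNA-binding region. The sequences come from the GENCODE transcripts of the GRCm38 (mm10) assembly that match the accessions of the table, and capitals mark the 36 bases that the 3 genes share.
Cebpb: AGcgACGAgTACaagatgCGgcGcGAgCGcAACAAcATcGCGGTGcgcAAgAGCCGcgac
Cebpa: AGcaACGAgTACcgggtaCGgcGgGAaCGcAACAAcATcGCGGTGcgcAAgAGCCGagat
Cebpg: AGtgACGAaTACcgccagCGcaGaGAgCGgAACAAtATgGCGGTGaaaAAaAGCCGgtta
These are bases 664 to 723 of the Cebpb coding sequence, 847 to 906 of Cebpa and 184 to 243 of Cebpg. Cebpa shared 51 of the 60 bases with Cebpb (85%) and Cebpg shared 39 (65%). Over whole transcripts the longest identical stretch was 29 bases between Cebpa and Cebpb, 13 between Cebpb and Cebpg and 12 between Cebpa and Cebpg, all shorter than the 50-base reads. A read that matched 1 of these 3 genes over its full length could therefore not match another of them equally well.

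Cebpa (NM_007678) is a single-exon gene on chromosome 7 from 35119293 to 35121931 on the plus strand of mm10, with 2639 counted bases. Cebpb (NM_009883), also of a single exon, runs on chromosome 2 from 167688915 to 167690432 on the plus strand, with 1518 counted bases. Cebpd (NM_007679) lies on chromosome 16 from 15887286 to 15889545 on the plus strand, and 1939 of its 2260 bases were counted. Cebpg (NM_009884) lies near Cebpa on chromosome 7, from 35046422 to 35056566 on the minus strand, with 2 exons and 4702 counted bases. Exons of genes of the opposite strand cover 312 bases of Cebpb (Tmem189), 322 bases of Cebpd (Spidr), 51 exon bases of Cebpa (Gm45091) and 4 of Cebpg (Gm45095). On the same strand as Cebpg, exons of Gm44836 cover 73 exon bases of Cebpg, which no strand setting would separate. The kit keeps the strand, but no source used here says whether the counting used it. Values of Tmem189 and Spidr therefore stand beside the results, while Gm45091, Gm45095 and Gm44836 were not analysed here.

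RefSeq's promoter table (GRCm38.p6) held 3 of the 4 genes. The 250 bases before the start site are printed for Cebpb and Cebpg, the member with the highest level and the member with the smallest spread, with matches to the searched motifs in capitals.
Cebpb, chr2:167688665-167688914, plus strand: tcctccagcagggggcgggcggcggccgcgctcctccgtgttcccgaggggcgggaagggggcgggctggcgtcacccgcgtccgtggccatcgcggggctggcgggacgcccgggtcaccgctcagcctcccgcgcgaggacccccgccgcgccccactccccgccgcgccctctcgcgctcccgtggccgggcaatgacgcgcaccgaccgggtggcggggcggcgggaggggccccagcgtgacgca
Cebpg, chr7:35056567-35056816, minus strand: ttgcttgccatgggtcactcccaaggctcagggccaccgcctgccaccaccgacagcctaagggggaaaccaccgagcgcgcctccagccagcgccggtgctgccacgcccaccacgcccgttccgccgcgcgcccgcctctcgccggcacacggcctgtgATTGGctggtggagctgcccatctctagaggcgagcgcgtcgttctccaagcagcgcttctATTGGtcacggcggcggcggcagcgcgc
The search covered 250 bases before to 50 bases after the start, on both strands. The motifs were TTCNNNGAA (STAT type, in 8.3% of all 32851 promoter windows of this length), TTGCNNAA (C/EBP type, 10.8%), GGGANTTTC (NF-κB type, 1.11%), TGACGTCA (CRE type, 1.79%), TGACGCAA (a CRE variant, 0.49%), CCAAT (37.4%), CACGTG (E-box, 7.15%) and TATAAA (13.6%). Cebpg held CCAAT on the opposite strand at bases -89 to -85 and -28 to -24. Cebpa held TATAAA at -30 to -25, and Cebpb held TATAAA after its start at 22 to 27. None of the other searched letters occurred in the 3 windows.

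Library totals ran from 3207497 to 16853646 counts, and 5 of them exceeded 10000000 counts, 2 from PBS_GFP and 3 from C26_GFP. Levels are given in CPM, the count of a gene relative to the total of its library, scaled by trimmed mean of M-values (TMM), and each member had at least 67 counts in every library. Cardiomyocyte markers were abundant in each library (Myh6 between 15631 and 29376 CPM, Tnnt2 between 2146 and 3311 CPM), as fits heart tissue. Nr1d1, which encodes REV-ERBα, had 195 ± 39.5 CPM (SD, n = 4) in PBS_GFP, 199 ± 33.8 (n = 5) in PBS_REVERBa, 137 ± 41.4 (n = 10) in C26_GFP and 166 ± 42.9 (n = 10) in C26_REVERBa, and neither vector comparison passed in these hearts. In such bulk tissue, fewer cells of a type and less RNA per cell cannot be told apart. A gene is said below to have risen or fallen when the adjusted p of edgeR's quasi-likelihood test, with Benjamini-Hochberg adjustment over the 12928 genes, was under 0.05.

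Per kilobase of counted transcript, Cebpb was the most abundant member in each group, with 120 CPM per kb in PBS_GFP and 183 CPM per kb in C26_GFP on average. Cebpd came second, with 26.4 CPM per kb in PBS_GFP and 67.6 CPM per kb in C26_GFP. Cebpg and Cebpa had the lowest levels per kb, 18.0 and 11.7 CPM per kb in PBS_GFP and 18.2 and 15.99 in C26_GFP. The order of the last pair did not hold in every library: the log2 ratio of Cebpa to Cebpg per kb ran from -0.79 to 0.35 in C26_GFP. In C26_REVERBa the means were 117 CPM per kb for Cebpb, 47.1 for Cebpd, 18.9 for Cebpa and 17.8 for Cebpg. The mean of Cebpa there rests on replicate 9 with 65.7 CPM per kb, and by medians Cebpa (14.5 CPM per kb) stayed below Cebpg (17.7).

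**Figure D1:**
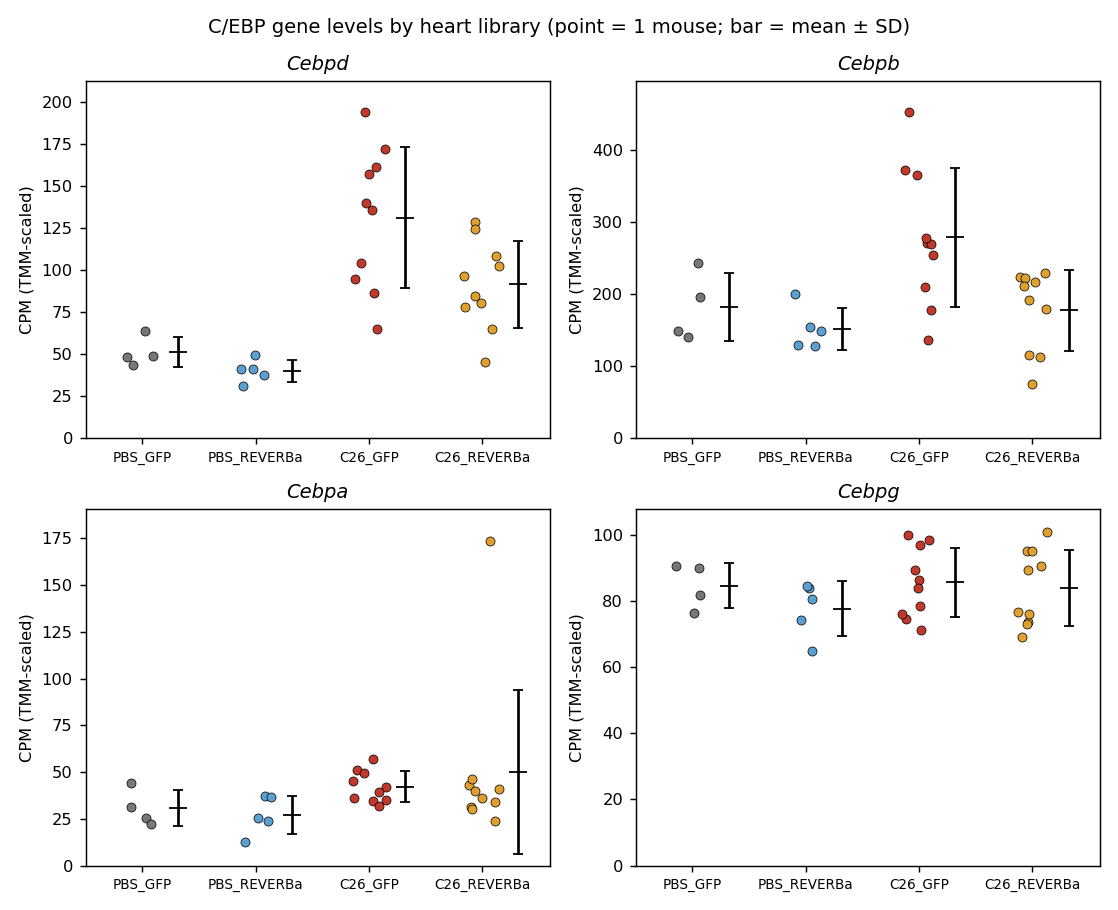
TMM-scaled CPM (vertical axes, each from 0) of Cebpd, Cebpb, Cebpa and Cebpg in the 4 groups, with 1 point per mouse and bars for the mean ± SD. All 10 C26_GFP points of Cebpd lie above the 4 PBS_GFP points, the lowest by a narrow margin (64.6 against 64.0 CPM), and a single C26_REVERBa point of Cebpa stands at 173 CPM.

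The first comparison asks how the tumour changed the hearts of mice with the GFP vector, C26_GFP against PBS_GFP. Cebpd, a delta member that is low in resting tissue and induced in the acute phase, had 48.2, 43.3, 49.1 and 64.0 CPM in the 4 PBS_GFP hearts. In the 10 C26_GFP hearts its level ran from 64.6 over a median of 138 to 194 CPM. The groups did not overlap, although the lowest tumour-bearing heart and the highest control heart nearly met. Cebpd rose 2.589-fold, a log2 change of 1.37 ± 0.25 (SE, adjusted p = 0.0001695, edgeR; 95% interval 0.86 to 1.88). It was 1 of 4 members to rise and none fell, where 14.2% of all tested genes rose and 14% fell. It was also the 1 member whose groups did not overlap with the tumour group higher, which held for 5.65% of all tested genes. By the size of its change Cebpd stood at rank 240 of 12928 genes and by its p at rank 412. By either direction 28.2% of genes passed. Leaving out each of the 14 libraries in turn gave log2 changes between 1.295 and 1.487, with the adjusted p at 0.00168 or less each time. Spidr, the neighbour on the other strand, had 2.45 CPM in PBS_GFP and 2.997 CPM in C26_GFP on average, far below Cebpd, and its log2 difference of 0.29 ± 0.23 (SE, adjusted p = 0.3619, edgeR) did not pass.

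Cebpb, the beta member and the most abundant of the family, had 195, 140, 149 and 243 CPM in PBS_GFP. Its C26_GFP levels ran from 135 over a median of 270 to 453 CPM. The tumour-bearing hearts were spread widely, with 7 of 10 above the highest control and 1 below the lowest. The log2 difference was 0.61 ± 0.26 (SE, adjusted p = 0.08002, edgeR; 95% interval 0.08 to 1.15) and did not pass. It passed without C26_GFP replicate 6 (log2 change 0.6725, adjusted p = 0.0478, edgeR) or without C26_GFP replicate 8 (0.6938, adjusted p = 0.0374), the 2 hearts with the lowest Cebpb of that group. Tmem189, whose exons cover 312 bases of Cebpb on the other strand, rose by a log2 of 0.36 ± 0.07 (SE, adjusted p = 0.0003202, edgeR), from 52.3 to 67.1 CPM on average. Its part in the Cebpb values was not tested.

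Cebpa, the alpha member of adipocytes and hepatocytes, had 25.3, 44.1, 31.6 and 22.1 CPM in PBS_GFP. In C26_GFP it ran from 31.8 over a median of 40.8 to 57.2 CPM. All 10 tumour-bearing hearts were above the control median and 4 of them above the highest control. The log2 difference of 0.43 ± 0.36 (SE, adjusted p = 0.3914, edgeR; 95% interval -0.30 to 1.17) did not pass. Cebpg, the short partner form, had 76.4, 81.7, 90.4 and 89.8 CPM in PBS_GFP, and 71.3 to 100.0 CPM with a median of 85.2 in C26_GFP. Of the 10 tumour-bearing hearts 3 were above and 3 below the whole control range. Its log2 difference was 0.02 ± 0.10 (SE, adjusted p = 0.9056, edgeR), and the 95% interval of -0.18 to 0.23 leaves out a change as large as that of Cebpd.

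The second comparison asks what the hepatocyte REV-ERBα vector changed in tumour-bearing mice, C26_REVERBa against C26_GFP. It shares the C26_GFP libraries with the first comparison, so high values there raise one difference and lower the other. Cebpb ran from 74.5 over a median of 201 to 229 CPM in C26_REVERBa. All 10 of these hearts were below the C26_GFP median of 270 CPM, 7 of the C26_GFP hearts were above the highest of them, and 3 of the C26_REVERBa hearts were below the lowest C26_GFP heart. Cebpb fell by 0.65 on the log2 scale (SE 0.19, 0.6369-fold, adjusted p = 0.03979, edgeR; 95% interval -1.05 to -0.26). It was 1 of 4 members to fall and none rose, where 3.45% of all tested genes fell, 3.75% rose and 7.2% passed in either direction. The 3 lowest C26_REVERBa hearts, replicates 3, 5 and 2 with 74.5, 112 and 115 CPM, stood apart from the other 7 with 179 CPM and more, and their Cebpd levels of 103, 124 and 96.6 CPM were not low for the group.

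The fall of Cebpb lay close to the threshold. Of 20 fits that each left out 1 library, 10 kept the adjusted p under 0.05. The call was lost without C26_GFP replicates 1, 2, 5, 7 or 10 and without C26_REVERBa replicates 2, 3, 5, 7 or 10, with log2 changes of -0.5467 to -0.6641 and an adjusted p of 0.0502 to 0.0861 (edgeR). It was also lost when only these 2 groups were fitted (log2 change -0.6499, adjusted p = 0.0743, edgeR). Tmem189 fell by 0.17 on the log2 scale (SE 0.05, adjusted p = 0.04084, edgeR) in the same comparison, and its part was not tested.

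Cebpd ran from 45.0 over a median of 90.6 to 129 CPM in C26_REVERBa. All 10 hearts were below the C26_GFP median of 138 CPM and 6 C26_GFP hearts were above the highest of them. The log2 difference was -0.52 ± 0.17 (SE, adjusted p = 0.05917, edgeR; 95% interval -0.87 to -0.17), just on the other side of the threshold from Cebpb. DESeq2 put the same difference at -0.5226 with an adjusted p of 0.0333, and limma's voom with sample weights at -0.5184 with an adjusted p of 0.0312. In edgeR it passed without C26_GFP replicate 6 (-0.5979, adjusted p = 0.0126), C26_GFP replicate 9 (-0.569, adjusted p = 0.0354) or C26_REVERBa replicate 5 (-0.5762, adjusted p = 0.0477). Cebpb and Cebpd thus had like differences with like errors in this comparison, and that 1 passed and the other did not is no evidence that they differ. Spidr had a log2 difference of -0.12 ± 0.17 (SE, adjusted p = 0.6984, edgeR) here.

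For Cebpa the median was 38.1 CPM in C26_REVERBa against 40.8 in C26_GFP, while the mean was 50.0 ± 43.9 CPM (SD, n = 10) against 42.2 ± 8.33 (n = 10). Median and mean moved apart through 1 heart, replicate 9, at 173 CPM. The log2 difference of 0.24 ± 0.26 (SE, adjusted p = 0.6047, edgeR) changed sign without that heart, to -0.2239 (adjusted p = 0.348). Cebpg had 69.1 to 101 CPM with a median of 83.0 in C26_REVERBa and a log2 difference of -0.03 ± 0.07 (SE, adjusted p = 0.8641, edgeR; 95% interval -0.18 to 0.13).

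**Figure D2:**
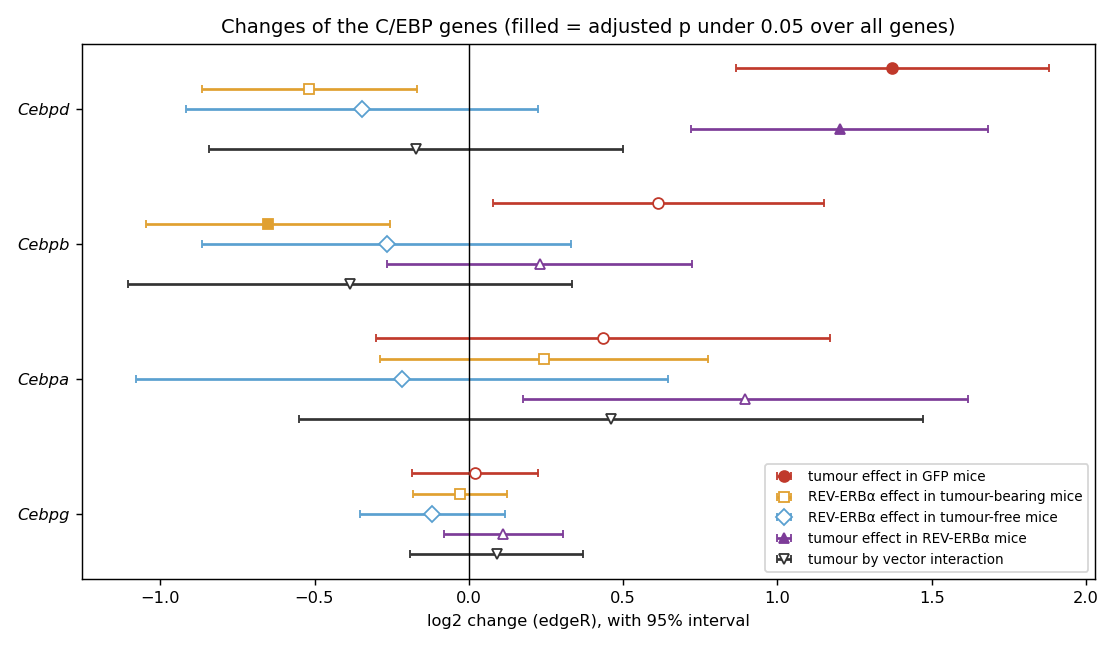
Log2 changes from edgeR (horizontal axis) with 95% intervals for the 4 genes in the 5 comparisons, where filled symbols have an adjusted p under 0.05. Cebpd is filled in both tumour comparisons (1.37 and 1.20), Cebpb only in the vector comparison of tumour-bearing mice (-0.65), and the Cebpg intervals are the narrowest.

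The tumour was also compared with PBS among mice with the REV-ERBα vector. Cebpd had 41.1, 40.9, 49.4, 30.8 and 37.3 CPM in the 5 PBS_REVERBa hearts, and 9 of 10 C26_REVERBa hearts were above the highest of these. The exception was the lowest C26_REVERBa heart, replicate 7 at 45.0 CPM. Cebpd rose 2.3-fold, a log2 change of 1.20 ± 0.24 (SE, adjusted p = 0.001873, edgeR; 95% interval 0.72 to 1.68), and was 1 of 4 members to rise where 4.05% of all tested genes rose, 3.19% fell and 7.23% passed in either direction. The rise passed in all 15 fits that left out 1 library, with log2 changes between 1.119 and 1.294.

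Cebpb had 148, 199, 154, 129 and 127 CPM in PBS_REVERBa. The C26_REVERBa hearts lay on both sides of that range, with 5 above its highest and 3 below its lowest value, and the log2 difference was 0.23 ± 0.24 (SE, adjusted p = 0.6062, edgeR; 95% interval -0.27 to 0.72). Cebpa had 37.1, 25.5, 36.4, 12.8 and 24.1 CPM in PBS_REVERBa and differed by a log2 of 0.90 ± 0.35 (SE, adjusted p = 0.1171, edgeR). Without C26_REVERBa replicate 9 that difference was 0.4322 (adjusted p = 0.196). Cebpg had 74.3, 84.0, 80.5, 64.8 and 84.4 CPM in PBS_REVERBa and a log2 difference of 0.11 ± 0.09 (SE, adjusted p = 0.504, edgeR), with 5 of 10 tumour-bearing hearts above its highest control.

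In tumour-free mice the vectors were compared by PBS_REVERBa against PBS_GFP. None of the 4 members passed, and no gene of the 12928 did (0%) in edgeR, where voom called 1. An unadjusted p under 0.05 in edgeR was seen for 530 genes, no more than that threshold lets through by chance. All 4 members had lower means with REV-ERBα, 39.9 against 51.1 CPM for Cebpd, 151 against 182 for Cebpb, 27.2 against 30.8 for Cebpa and 77.6 against 84.6 for Cebpg. The log2 differences were -0.35 (95% interval -0.92 to 0.23), -0.27 (-0.86 to 0.33), -0.22 (-1.08 to 0.65) and -0.12 (-0.35 to 0.12) in that order, each with an adjusted p of 1 (edgeR). For Cebpd 4 of 5 PBS_REVERBa hearts were below the lowest PBS_GFP heart, yet the highest of them reached 49.4 CPM. With 4 and 5 hearts these intervals are wide, and for Cebpa, Cebpb and Cebpd they hold changes as large as the one of Cebpd in the second comparison.

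Whether the tumour's effect differed between the vectors was tested as an interaction. The differences between the 2 log2 changes were 0.46 ± 0.50 for Cebpa, -0.39 ± 0.35 for Cebpb, -0.17 ± 0.33 for Cebpd and 0.09 ± 0.14 for Cebpg (SE), with adjusted p-values of 0.7745, 0.7205, 0.8974 and 0.8544 (edgeR). No gene passed this test in edgeR (0%), 1357 had an unadjusted p under 0.05, DESeq2 called 9 and voom 4. For Cebpd the 95% interval of -0.84 to 0.50 shows what the design could resolve. A different rise of Cebpd in the 2 vector groups was therefore not detected, and similar rises were not shown either.

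The make-up of the family changed with these levels. Cebpd made up 15.05 ± 1.02% of the summed CPM per kb of the 4 genes in PBS_GFP and 14.1 ± 1.66% in PBS_REVERBa (SD, n = 4 and 5). In tumour-bearing mice its share was 23.8 ± 4.49% in C26_GFP and 24.5 ± 9.15% in C26_REVERBa (n = 10 each). Every C26_GFP heart, from 18.1 to 30.2%, had a larger Cebpd share than every PBS_GFP heart, whose highest share was 16.4%. Cebpb stayed the largest part, with 67.5% in PBS_GFP, 67.6% in PBS_REVERBa, 63.4% in C26_GFP and 57.1% in C26_REVERBa on average. The log2 ratio of Cebpb to Cebpd per kb ran from 1.95 to 2.37 in PBS_GFP and from 0.73 to 1.91 in C26_GFP, without overlap. In C26_REVERBa it ran from -0.11 to 2.34, the widest range of the 4 groups. In 1 heart of that group, replicate 3, Cebpd exceeded Cebpb per kb (52.9 against 49.1 CPM per kb).

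**Figure D3:**
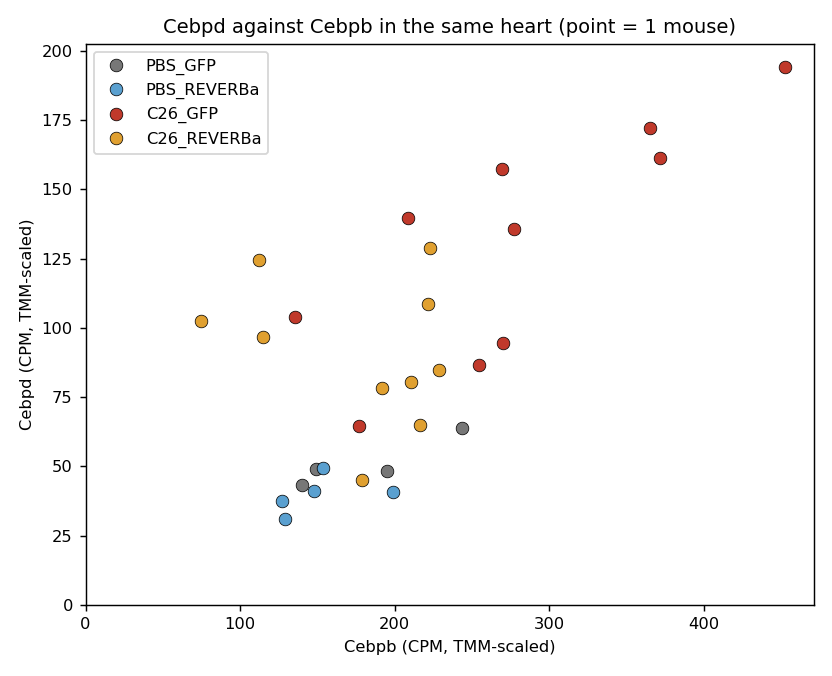
Cebpd against Cebpb in the same heart, both in TMM-scaled CPM from 0, with 1 point per mouse coloured by group. C26_GFP points run from low to high in both genes up to 453 and 194 CPM, whereas 3 C26_REVERBa points with Cebpb at 115 CPM or less keep Cebpd at 96.6 CPM or more.

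Cebpb and Cebpd varied together in 1 tumour group and not in the other. Over the 10 C26_GFP hearts Pearson's r of their log2 CPM was 0.70 (Spearman's rho 0.75), and over the 10 C26_REVERBa hearts it was -0.27 (rho 0.02). Over all 29 libraries r was 0.52, and 0.27 with the group means taken out. Cebpd and Cebpg had r = 0.71 in C26_GFP and 0.19 in C26_REVERBa. The points share a library and its scaling, so these values are descriptions, and the difference between the groups was not tested. For Cebpa r in C26_GFP was below 0 with each other member, at -0.34 with Cebpb, -0.40 with Cebpd and -0.48 with Cebpg.

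Among 10547 genes of at least 5 CPM, the 5 genes most like Cebpd over the 29 libraries by Pearson's r of log2 CPM were Ddit4 (0.92), Slc10a6 (0.92), S1pr1 (0.91), Nfkbia (0.90) and Mt1 (0.89). With group means taken out, r stayed at 0.84 for Ddit4, a stress-induced inhibitor of mTORC1, and 0.85 for Nfkbia, the inhibitor of NF-κB, which was then the gene most like Cebpd. For Mt1, a metallothionein, r fell to 0.61. The highest r for Cebpb was with Mbd2 (0.84), a protein that binds methylated DNA, followed by Fxr2, Bag1, Faf1 and Agap3 between 0.83 and 0.79. Cebpg was most like Adam1a (0.81), followed by Lpin2, Haus3, Stc1 and Tsc22d3 down to 0.73. Cebpa was most like Pde3b (0.89), a phosphodiesterase of adipocytes and cardiomyocytes, followed by Ifi27l2a, Cbr2, Aebp1 and Prkar2b between 0.84 and 0.82. Spearman's rho with Cebpa was 0.82, 0.65, 0.535, 0.73 and 0.77 for these 5 in that order. Cebpa and Pde3b were both highest in C26_REVERBa replicate 9, at 173 and 32.7 CPM, and these values include that heart. The 4 sets had no gene in common, but sets of 5 out of 10547 genes would seldom share one, so nothing is concluded from this.

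Cebpa went with markers of adipocytes. In C26_REVERBa replicate 9, with 173 CPM of Cebpa from 1083 counts, the adipocyte genes Adipoq, Cidec and Plin1 stood at 99.6, 137 and 83.9 CPM. In no other library did they exceed 8.43 CPM for Adipoq, 13.9 for Cidec and 7.74 for Plin1, and at least 1 of 8 adipocyte markers was at 0 in each library but this one and PBS_GFP replicate 2. The summed CPM of the 8 markers was 731 in that heart and at most 320 in the others of its group. It ran from 153 to 283 in C26_GFP, 196 to 214 in PBS_GFP and 184 to 248 in PBS_REVERBa. Outside replicate 9 the sum came mainly from other genes of the list than Adipoq, Cidec and Plin1. In PBS_GFP replicate 1, for example, it was 214 CPM with Adipoq at 0 and Cidec and Plin1 at 0.14 CPM each. With group means taken out, Pearson's r between Cebpa and the mean log2 CPM of the 8 markers was 0.89 over 29 libraries. Over the 28 without C26_REVERBa replicate 9 it was 0.78. For Cebpb, Cebpd and Cebpg r was 0.06, -0.12 and 0.16. Without replicate 9 the Cebpa level of C26_REVERBa was 36.3 ± 7.18 CPM (SD, n = 9).

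With the adipocyte score added to the model as a covariate, an alternative chosen after seeing the data, Cebpa differed between C26_REVERBa and PBS_REVERBa by a log2 of 0.7138 with an adjusted p of 0.00151 (edgeR). The vector difference in tumour-bearing mice was then -0.005162 (adjusted p = 0.984). Among C26_GFP and PBS_GFP the covariate gave no call for Cebpa. Other marker lists also went with Cebpa (group means out). Their r was 0.59 for atrial, 0.57 for neutrophil, 0.50 for smooth muscle and 0.48 for B and T cell markers. It was 0.44 for macrophage, 0.35 for fibroblast, 0.32 for hepatocyte and 0.30 for cardiomyocyte markers, and -0.23 for endothelial markers. These values include C26_REVERBa replicate 9, which also had the highest neutrophil and B and T cell scores (0.395 and 0.681, mean log2 CPM). They were not computed without that heart. PBS_GFP replicate 2, the highest Cebpa of its group at 44.1 CPM, had hepatocyte markers summing to 152 CPM. That sum was 195 CPM in C26_REVERBa replicate 9 and 174 CPM in C26_REVERBa replicate 10, where Cebpa stood at 46.5 CPM. The part of these other cells in the Cebpa levels was not tested.

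**Figure D4:**
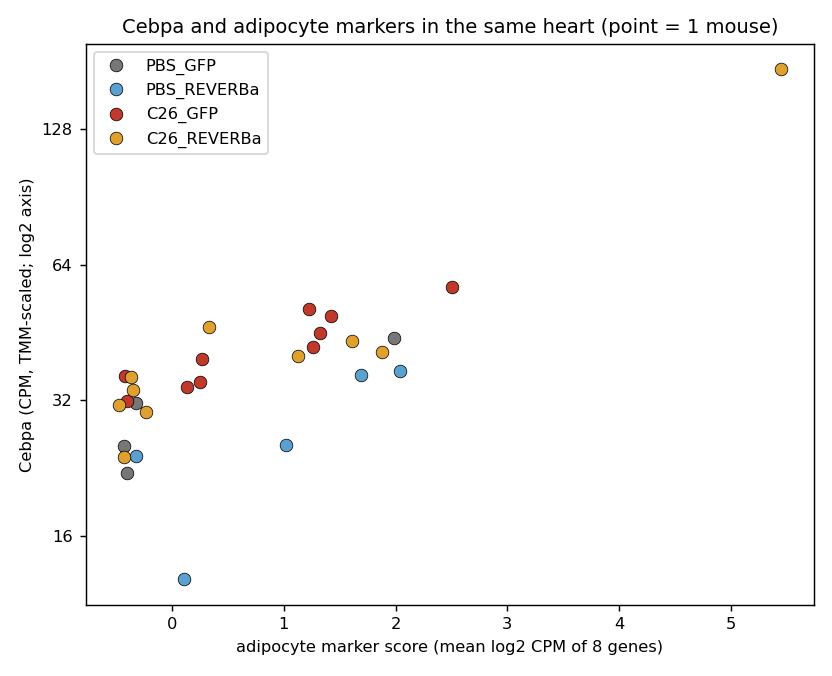
Cebpa (TMM-scaled CPM, log2 axis) against the adipocyte marker score (mean log2 CPM of 8 genes) in the same heart, with 1 point per mouse coloured by group. A single C26_REVERBa heart stands at a score of 5.45 and 173 CPM, and the other 28 tend to rise together over scores of -0.48 to 2.51. With group means left in, r was 0.795 over all 29 hearts and 0.60 over these 28.

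Markers of macrophages and monocytes moved in the same direction as Cebpd. Of 10 such markers, all tested, 6 rose and none fell in C26_GFP against PBS_GFP, where 14.2% of all tested genes rose and 14% fell. The summed CPM of the 10 ran from 266 to 321 in PBS_GFP, 227 to 322 in PBS_REVERBa, 347 to 510 in C26_GFP and 299 to 419 in C26_REVERBa. In the REV-ERBα comparison of tumour-bearing mice 2 of the 10 fell and none rose, where 3.45% of all tested genes fell and 3.75% rose. Within groups this list did not go with Cebpd (r = -0.14 with group means out) or Cebpb (r = -0.26). Neutrophil markers were low. Of 11 such markers 3 were tested, and 1 of them rose with the tumour in GFP mice and 1 in REV-ERBα mice. In REV-ERBα mice 4.05% of all tested genes rose with the tumour and 3.19% fell. The summed CPM of the 11 ran from 2.36 to 6.03 in PBS_GFP, 2.92 to 5.51 in PBS_REVERBa, 3.82 to 13.4 in C26_GFP and 3.07 to 26.7 in C26_REVERBa. Ly6g, a defining neutrophil marker, was at 0 in all 9 PBS libraries and at most 0.39 CPM elsewhere. The part of macrophages and neutrophils in the Cebpd and Cebpb differences was not tested. The summed cardiomyocyte markers were 60321 CPM in PBS_GFP, 58368 in PBS_REVERBa, 50032 in C26_GFP and 57515 in C26_REVERBa on average.

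The upstream inputs known to induce Cebpb and Cebpd were listed together with the feedback inhibitor Socs3. Of 15 tested genes of this list 8 rose and 3 fell with the tumour in GFP mice. Their median log2 change was 0.24 against 0 over all genes. The shares of all tested genes against which this and the following lists are to be read were 14.2% higher and 14% lower in that comparison, 3.75% and 3.45% between the vectors in tumour-bearing mice, and 4.05% and 3.19% for the tumour in REV-ERBα mice. Osmr, the receptor for oncostatin M, rose by a log2 of 1.69, from 35.2 to 114 CPM. Socs3, the feedback inhibitor of STAT3 signalling, rose by 2.10, Tnfrsf1a, a receptor for tumour necrosis factor, by 0.85 and Stat3 itself by 0.68. The 3 that fell, named after their values were seen, were the cytokine genes Lif and Tnf and the glucocorticoid receptor gene Nr3c1 (log2 changes -1.21, -1.19 and -0.52). The ligand gene Il6 held 11 counts over all 29 hearts and was not tested. With the REV-ERBα vector 6 of the 15 rose with the tumour and none fell, Osmr by 1.40 and Socs3 by 1.35. Between the vectors in tumour-bearing mice Osmr, Stat3 and Socs3 fell by 0.39, 0.21 and 0.55 on the log2 scale and 1 input, Nr3c1, rose by 0.27. Without C26_REVERBa replicate 9 that last comparison had 5 genes of the list lower and 2 higher. Without the 5 libraries above 10000000 counts it had 5 lower and 1 higher, and the first count was then 6 higher and 1 lower. Within C26_GFP, Osmr had r = 0.71 with Cebpd, 0.55 with Cebpb, 0.71 with Cebpg and -0.48 with Cebpa, given as a description. Within C26_REVERBa these values were 0.42, -0.25, 0.795 and 0.33 in that order. Osmr was thus not like Cebpd and Cebpb alone. In C26_GFP, r of Cebpd was lower with Stat3 (0.27), Socs3 (0.22) and Tnfrsf1a (-0.01).

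The acute phase and inflammatory genes known as C/EBP targets had 9 of 19 tested members higher and 1 lower in C26_GFP against PBS_GFP, with a median log2 change of 1.52. Serpina3n, an acute phase protease inhibitor, rose by a log2 of 5.02, from a mean of 12.5 to 433 CPM. Lcn2, which encodes the iron-binding protein lipocalin 2, rose by 4.48 from a level of 0.890 CPM, while Lrg1 rose by 2.04 and complement C3 by 1.95. In mice with the REV-ERBα vector 4 of the 19 rose with the tumour and none fell, with Serpina3n up by 3.73 and Lcn2 at 2.39 without passing (adjusted p = 0.09813, edgeR). Between the vectors in tumour-bearing mice 5 fell and 1 rose, Lcn2 by -2.22, Serpina3n by -1.54 and Lrg1 by -1.15, and the median over the list was 0.12. Without the 5 libraries above 10000000 counts, the 9 and 1 of the first comparison became 4 and 1, the 4 and 0 became 10 and 0, and the vector comparison had 6 higher and 6 lower. The list also holds genes made mainly in the liver, among them Saa1, Saa2, Hp and the fibrinogen genes Fga, Fgb and Fgg, none of which passed in these 3 comparisons. Hepatocyte markers, with Fgb on both lists, varied between hearts, with summed levels of 8.43 to 152 CPM in PBS_GFP, 8.36 to 26.5 in PBS_REVERBa, 19.3 to 68.4 in C26_GFP and 12.5 to 195 in C26_REVERBa. Of 7 tested hepatocyte markers 2 fell with the tumour in GFP mice, 1 rose with it in REV-ERBα mice and none passed between the vectors in tumour-bearing mice, and their part in the list's values was not tested. How deep a library was sequenced and which group it belonged to went together here, and the part of depth was not tested.

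The next list holds other bZIP factors, which pair with C/EBPs or bind related sites, and Cebpz, which is not a bZIP factor. With the tumour in GFP mice 4 of its 12 tested members were higher and 2 lower (median 0.16). Nfil3, a repressor of D-box sites, rose by a log2 of 1.002, and Atf3, a stress-induced factor, by 1.59. The other members that rose, named after their values were seen, were Fos and Cebpz. Hlf and Dbp, activators of the same D-box sites and outputs of the circadian clock, fell by 0.69 and 1.11 on the log2 scale. In tumour-bearing mice the REV-ERBα vector went with the reverse, Hlf and Dbp rising by 0.46 and 0.86 and Nfil3 and Atf3 falling by 0.79 and 1.48, along with Atf4 and Fos, for 2 higher and 4 lower in all. These comparisons share the C26_GFP hearts, where Dbp ran from 60.4 to 315 CPM. No member of this list passed for the tumour in REV-ERBα mice. Without the 5 deepest libraries the first count fell to 0 higher and 1 lower, and without C26_REVERBa replicate 9 the vector comparison had 3 higher and 7 lower.

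Of the targets of ATF4 and C/EBPγ in amino acid transport, serine synthesis and glutathione metabolism, 4 of 18 tested rose and 1 fell with the tumour in GFP mice (median 0.19), a share near the 28.2% of all tested genes that passed in either direction. Slc3a2, the heavy chain of amino acid transporters, rose by a log2 of 1.21, Gclm, of glutathione synthesis, by 0.60, Ddit4 by 1.91 and Psat1, of serine synthesis, by 1.02. The same 4 fell between the vectors in tumour-bearing mice, by 0.51, 0.38, 0.98 and 0.67 on the log2 scale, and 1 of the 18 rose there. In REV-ERBα mice 3 of the 18 rose with the tumour and none fell. Without the 5 deepest libraries the first count was 2 higher and 0 lower.

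Growth arrest and cell cycle targets changed in both directions with the tumour in GFP mice, 3 of 9 higher and 2 lower (median 0.11). The cyclin-dependent kinase inhibitors Cdkn1a and Cdkn1b rose by a log2 of 2.93 and 0.41 and Myc by 1.35, while the cyclin gene Ccnd1 fell by 1.49 on the log2 scale. The vector comparison in tumour-bearing mice had 2 of the 9 higher and 1 lower, the lower one being Cdkn1a at -1.66, and 0 higher and 1 lower without the 5 deepest libraries. Adipocyte and metabolic targets of Cebpa had 3 of 13 tested higher and 1 lower (median 0.26), again near the 28.2% of all tested genes, with the lipase genes Pnpla2 and Lpl up by 1.02 and 0.68, the fatty acid transporter Cd36 up by 0.53, and Slc2a4, a glucose transporter, down by a log2 of -0.28. Without the 5 deepest libraries 2 of the 13 were higher and 0 lower. In the vector comparison of tumour-bearing mice Pnpla2 alone of the 13 passed, at -0.47 (1 higher and 2 lower without C26_REVERBa replicate 9).

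Genes known to regulate C/EBPs, most of them through the protein, include kinases, ubiquitin ligase adaptors and chromatin cofactors. Of 17 such genes 1 was higher and 1 lower with the tumour in GFP mice (median -0.05). In that comparison 28.2% of all tested genes passed in either direction. Trib2, an adaptor through which C/EBPα is degraded, fell by 0.49 on the log2 scale in GFP mice and by 0.45 in REV-ERBα mice, and Smarca2, a chromatin remodeller, rose by 0.29 in GFP mice. The kinase gene Gsk3b and the acetyltransferase gene Crebbp had -0.15 and 0.18 and did not pass. None of the 17 passed between the vectors in tumour-bearing mice. Of 10 granulocyte targets only 3 had enough counts to be tested, none passed in GFP mice, where S100a9 had a log2 difference of 1.37 (adjusted p = 0.05362, edgeR), and S100a9 rose by 2.59 with the tumour in REV-ERBα mice. In tumour-free mice and in the interaction test no gene of these lists passed, and none of all 12928 tested genes did either (0%, edgeR).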

How the data were processed

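The deposited file holds whole-number counts of reads per gene, which the authors made from stranded, paired-end libraries of total heart RNA without poly-A selection, per the labels' protocols. The build was mm10, and the tools were STAR 2.4.2a and DESeq2 1.24.0, per the submitters' processing notes, which give no roles. Which tool counted the reads, and with which strand setting, is not stated there. Counts were used as deposited, and 1 column of per-sample values matched no sample and was not used. Replicates were separate mice. Genes with a minimum count of 10 in enough libraries and a total of at least 15 were kept, scaled by TMM and fitted in edgeR 4.0.16 (R 4.3.3) with 1 mean per group over all 29 libraries, and contrasts were tested by the quasi-likelihood F test with Benjamini-Hochberg adjustment over the 12928 genes. DESeq2 1.42.0, limma 3.58.1 (voom), other filters and scalings, a replicate block and leaving out each library were alternatives. Leaving out the 5 libraries above 10000000 counts, leaving C26_REVERBa replicate 9 out of the list counts and an adipocyte covariate were added after seeing the data. Likeness used log2 CPM with a prior count of 2. Each list's named genes are the up to 4 with the smallest p in the tumour comparison of GFP mice. The members and lists were chosen with earlier results of these data known. The scripts were tested on simulated data. No pair of libraries was a duplicate (lowest chi-square per gene 2.64 over 406 pairs). A further sequence comparison is not reported here.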

Additional observations from a re-analysis of the deposited data

Results flagged for a closer look

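Of 16 sets of values, each 1 member in 1 group, 1 held a library far from the rest. In C26_REVERBa the highest Cebpa level was 173.3 CPM in replicate 9 (1083 counts), and the next highest was 46.5 CPM. The gap was 0.849 of the group's whole range, above the critical value of Dixon's test for 10 samples. Chance flags about 1 in 20 such groups. Adipocyte markers stood high in the same library, at a summed 731 CPM, and their part in the Cebpa level was not tested.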

How the results depend on the processing

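Cebpd rose with the tumour in both vector groups under each of 10 other settings (log2 change 1.297 to 1.518 in GFP mice, 1.194 to 1.383 in REV-ERBα mice) and in every fit without 1 library. The shared replicate numbers name separate mice and did not pair the libraries: 4 of 29 correlated best with a library of their own number. With a replicate block the genes passed were 291 (931 without) for the vector in tumour-bearing mice and 450 (935 without) for the tumour in REV-ERBα mice, Cebpb in tumour-bearing mice no longer passed (-0.6459, adjusted p = 0.083), and Cebpg in the tumour comparison of GFP mice turned to -0.03645. Fitting only the groups compared gave 327 genes for the vector in tumour-bearing mice, 1 in tumour-free mice, and -0.6499 for Cebpb, which did not pass. Voom gave 1772 and 1 genes there, 4 for the interaction, -0.1175 for Cebpa and -0.5184 for Cebpd, which passed. DESeq2 gave 9 genes for the interaction and -0.5226 for Cebpd, which passed. Without the 5 deepest libraries the tumour comparison of GFP mice had 1972 genes (3642 with them) and Cebpg at -0.02722, and Cebpd between the vectors passed at -0.6005. The adipocyte covariate gave Cebpa -0.005162 between the vectors and 0.7138 for the tumour in REV-ERBα mice, which passed.

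Leaving out 1 library at a time, the genes passed ran from 295 (without C26_REVERBa replicate 7) to 1778 (without C26_REVERBa replicate 9) for the vector in tumour-bearing mice and from 476 to 1201 for the tumour in REV-ERBα mice. In the tumour comparison of GFP mice Cebpb ran from 0.5046 to 0.7801 and Cebpg from -0.02447 to 0.05457. Between the vectors in tumour-bearing mice Cebpa ran from -0.2239 to 0.3304, Cebpb from -0.7303 to -0.5467, Cebpd from -0.5979 to -0.435 and Cebpg from -0.06078 to 0.001573. Cebpa ran from -0.3559 to 0.03389 between the vectors in tumour-free mice, where PBS_GFP replicate 2 turned its sign, and from -0.005421 to 0.6006 in the interaction. The cause of these shifts was not tested. Counts per member were 67 or more in each library, so each member was seen in all of them. The part of depth in the members' differences was not tested.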
